A study of Mus musculus with 9 samples.

Results

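The unfolded protein response and the integrated stress response were followed through 34 genes, matched by symbol to the mouse gene models of the count table, which held 57126 genes. The genes were listed by what they encode, and no measured value enters the rule. Earlier results of these data were known when they were chosen. They comprise 4 genes of the sensors and their factor (Ern1, Eif2ak3, Atf6 and, as the factor, Xbp1), 14 genes of chaperones and folding enzymes of the endoplasmic reticulum (ER), 11 genes of the ATF4-CHOP branch and 5 genes of ER-associated degradation (ERAD) and protein entry. All 34 were found and all 34 had enough counts to be tested. Gene expression was measured by sequencing of polyadenylated RNA from mouse plasmacytoid dendritic cells (pDCs), dendritic cells specialised in type I interferon secretion, that had been isolated by fluorescence-activated sorting. One group received phosphate-buffered saline (PBS, the vehicle), another mitochondrial DNA (mtDNA) and the last its oxidized form (Ox-mtDNA), and each of the 3 groups holds 3 libraries. Comparing the groups asks how pDCs respond to mitochondrial DNA and to its oxidized form. Mouse strain, sex and age, the dose, the length of treatment and the tissue of origin of the cells are not given in the sources used here, nor is whether replicates were separate animals or separate cultures, and the p-values reflect only how far these libraries spread.

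Secreted and membrane proteins fold in the ER, and unfolded protein there is sensed by 3 membrane proteins. IRE1, encoded by Ern1, splices Xbp1 mRNA into the form that encodes an active transcription factor. ATF6 is cut in the Golgi apparatus to release another one, and PERK, encoded by Eif2ak3, phosphorylates the translation factor eIF2α. The first pair mainly raises transcription of chaperones and of ERAD components, which return misfolded protein to the cytosol for destruction. Phosphorylation of eIF2α lowers general protein synthesis and favours translation of ATF4, which turns on genes of amino acid supply and the factor CHOP, encoded by Ddit3. Other kinases, which respond to amino acid shortage, double-stranded RNA or haem shortage, phosphorylate the same site, so ATF4 can also act without ER stress, and this wider pathway is called the integrated stress response. pDCs, like plasma cells, have an extensive ER for protein secretion.

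Total counts per library lay between 16029951 and 25378884. Replicate 3 stood apart from replicates 1 and 2 in every group. Xist, the RNA that coats the inactive X chromosome, was at 818 to 2087 CPM (counts made comparable across library sizes) in the 3 libraries of replicate 3 and at 0.846 CPM or less in the other 6. Genes of more than 60% GC had a median log2 difference of -3.27 in PBS replicate 3 from the mean of PBS replicates 1 and 2. Summed levels of 13 pDC markers were 8878 to 12854.5 CPM in PBS, 7201 to 10926.5 CPM after mtDNA and 4917 to 11185 CPM after Ox-mtDNA, with the lowest sum in Ox-mtDNA replicate 2, and none of the markers was at 0 throughout. Of these 13, 11 had negative fold changes for Ox-mtDNA against PBS (log2 median -0.68, 4 lower at an unadjusted p under 0.05), as had 4 of 5 markers of type 1 conventional dendritic cells (cDC1, log2 median -0.93, 2 lower). Over all 17555 tested genes 8103 fold changes were negative, and 3.93% of genes were lower at that threshold. In the library with the lowest pDC sum 8 B cell markers summed to 694 CPM, against 149 to 437 CPM in the other 8 libraries. Of 17555 tested genes, 0 passed an adjusted p of 0.05 in any of the 3 comparisons (edgeR quasi-likelihood test with Benjamini-Hochberg adjustment), that is 0% of tested genes for Ox-mtDNA against PBS, 0% for mtDNA against PBS and 0% for Ox-mtDNA against mtDNA. At an unadjusted p under 0.05 there were 1722, 460 and 422 genes, and by the Wald test of DESeq2 370, 14 and 1 genes passed after adjustment. The fold changes below are therefore given as values with their errors, beside the same over all tested genes.

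Genes of the ATF4-CHOP branch had higher mean levels after Ox-mtDNA than after PBS, while chaperone genes of the ER did not show this as a group. The log2 fold changes of all 11 ATF4-CHOP genes were positive (median 2.08), and the 14 chaperone and folding genes had a median of -0.09, with 6 positive and 8 negative. The median was 0.05 over the 5 ERAD and entry genes, with 3 positive, and the 4 genes of the sensors and their factor were split evenly. Over all 17555 tested genes it was 0.06. Within replicates 1, 2 and 3 the ATF4-CHOP medians were 1.23, 2.63 and 1.36, and the chaperone medians -0.01, -0.02 and -0.16. In all 3 replicates 8 of the 11 ATF4-CHOP genes were higher, as were 3542 of the 17555 tested genes. Over all 34 genes the median was 0.20, with 22 positive and 12 negative, and without PBS replicate 3 it was 0.07. At an unadjusted p under 0.05, 7 of the 34 genes were higher and 0 lower, against 5.88% and 3.93% of all tested genes. With the replicate number as a block these were 11 and 2, against 11% and 8.01% of all tested genes, and 9 of the 11 were ATF4-CHOP genes. The 2 that were lower were Pdia4 and Sel1l. The part of the lower pDC and cDC1 markers in these values was not tested. In 5 of the 34 (Atf4, Ddit3, Ppp1r15a, Nupr1 and Dnajb9) every Ox-mtDNA library lay above every PBS library, and in 3 (Calr, Dnajb11 and Dnajc3) every one lay below, against 7.39% and 8.08% of all tested genes. In bulk RNA, fewer cells that express a gene and less RNA per cell cannot be told apart.

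**Figure D1:**
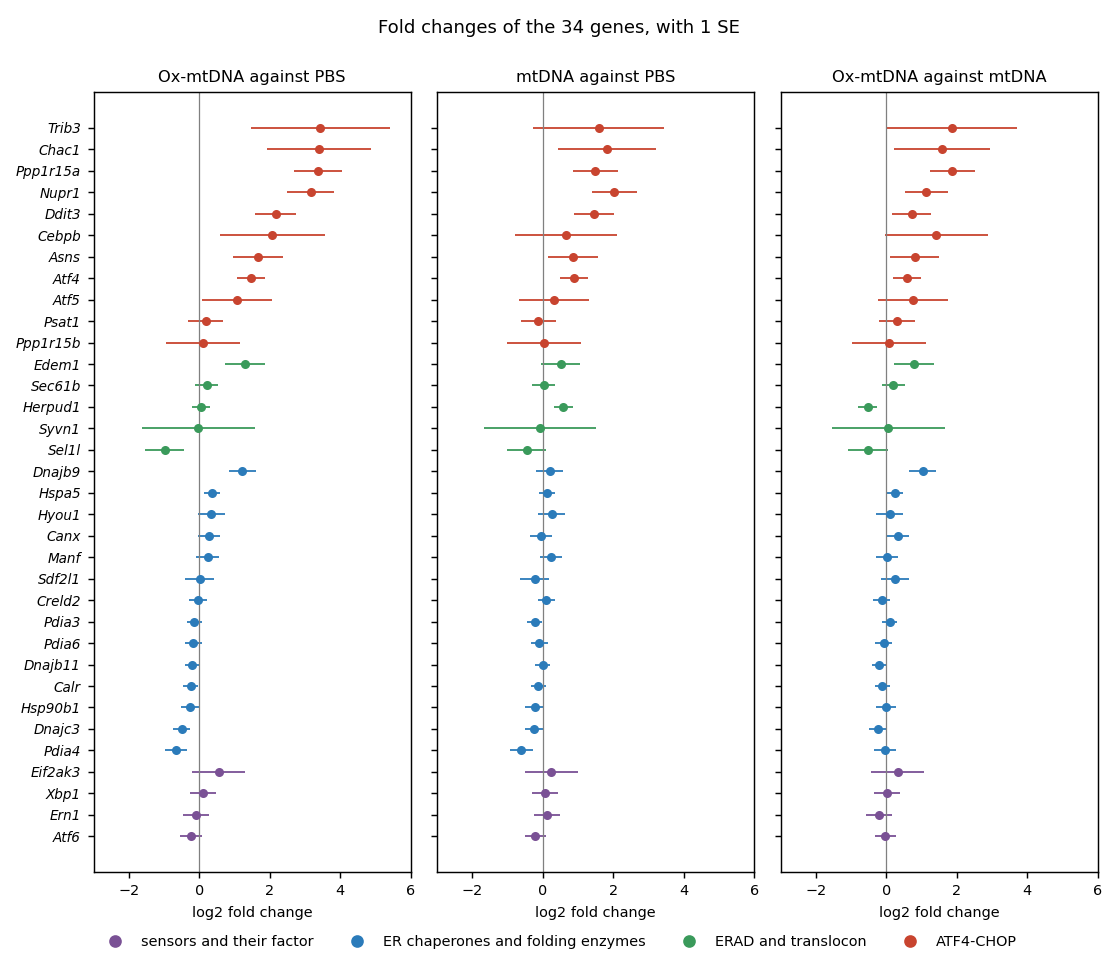
Log2 fold change of each of the 34 genes in the 3 comparisons (x axis, log2 scale), with bars of 1 standard error of the edgeR fit (3 libraries per group) and colours for the 4 role groups. All 11 ATF4-CHOP genes lie to the right of 0 for Ox-mtDNA against PBS, with a median of 2.08, and the chaperone genes lie on both sides of 0, with a median of -0.09.

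Atf4 encodes the transcription factor at the centre of the integrated stress response (chromosome 15, 80139385 to 80141742, GRCm39). In PBS replicates 1, 2 and 3 Atf4 was at 158, 151 and 168 CPM, in those of mtDNA at 179, 201 and 498 CPM and in those of Ox-mtDNA at 371, 511 and 437 CPM. PBS libraries were close together, and all Ox-mtDNA libraries were above them. Of the mtDNA libraries, replicates 1 and 2 lay just above PBS and replicate 3 within the range of Ox-mtDNA. The fold change for Ox-mtDNA against PBS was 1.47 on the log2 scale (SE 0.41, edgeR adjusted p = 0.472). Within replicates 1, 2 and 3 the differences between Ox-mtDNA and PBS in log2 CPM (prior count 2) were 1.23, 1.76 and 1.38. Leaving out single libraries gave fold changes from 1.33 to 1.55.

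Ddit3 encodes CHOP, a factor induced by ATF4 that is linked to cell death under lasting ER stress (chromosome 10, 127126643 to 127132157). Ddit3 was measured at 15.03, 15.8 and 16.3 CPM in replicates 1, 2 and 3 of PBS, 19.9, 26.1 and 82.6 CPM in those of mtDNA and 42.8, 98.1 and 70.4 CPM in those of Ox-mtDNA. It followed the order of Atf4, with tight PBS values, mtDNA replicate 3 far above mtDNA replicates 1 and 2, and no overlap between PBS and Ox-mtDNA. Ox-mtDNA against PBS gave Ddit3 a log2 fold change of 2.17 (SE 0.57, edgeR adjusted p = 0.472). By the Wald test of DESeq2 the adjusted p was 0.0350, with limma-voom 0.509 and with the replicate block in edgeR 0.123. Replicate differences were 1.504, 2.63 and 2.11. The symbol belongs to 2 gene models, and the values are those of ENSMUSG00000025408, the longer one. The shorter, of 105 bases, lies wholly within its exons, and a further 68 exonic bases are shared with the antisense gene Mars, so that reads over them were counted for more than one gene.

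Ppp1r15a encodes GADD34, which leads a phosphatase to eIF2α and so restores protein synthesis. The 3 PBS libraries held 18.5, 15.2 and 5.16 CPM of Ppp1r15a, the mtDNA libraries 25.4, 19.2 and 63.99 CPM and the Ox-mtDNA libraries 148, 179 and 71.04 CPM. The 3 Ox-mtDNA libraries were the 3 highest of all 9, and PBS replicate 3 was the lowest. Ppp1r15a thus had a log2 fold change of 3.36 for Ox-mtDNA against PBS (SE 0.68, edgeR adjusted p = 0.472). Replicate differences were 2.99, 3.55 and 3.76, the last against the low PBS library. Fitted on replicates 1 and 2 alone, it had a fold change of 3.29 at an edgeR adjusted p of 0.0276. By the Wald test of DESeq2 on all libraries the adjusted p was 0.000593, with limma-voom 0.509 and with the replicate block in edgeR 0.115. Ppp1r15b, the constitutive partner of the same phosphatase, was at 157, 145 and 21.8 CPM in PBS, 154, 152 and 25.01 CPM after mtDNA and 99.9, 232 and 16.97 CPM after Ox-mtDNA, with replicate 3 lowest in each group. Its log2 fold change for Ox-mtDNA against PBS was 0.11 (SE 1.06), and -0.07 with the replicate block. Ppp1r15b shares 640 exonic bases with an antisense gene model.

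Nupr1, a small stress-induced chromatin protein, was the least abundant of the 34 genes, with 165 counts over the 9 libraries. Levels of Nupr1 in replicates 1, 2 and 3 were 0.419, 0.103 and 0.114 CPM in PBS, 1.12, 0.606 and 0.924 CPM after mtDNA and 2.16, 2.22 and 1.44 CPM after Ox-mtDNA. Even so the 3 groups did not overlap, with PBS lowest, mtDNA between and Ox-mtDNA highest. Its log2 fold change for Ox-mtDNA against PBS was 3.16 (SE 0.67, edgeR adjusted p = 0.472). By the Wald test of DESeq2 the adjusted p was 0.00129, with limma-voom 0.509 and with the replicate block in edgeR 0.115. At this depth a PBS library held only a few fragments, and leaving out single libraries gave log2 fold changes from 2.84 to 4.07.

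Trib3, Chac1 and Asns are ATF4 targets whose levels differed widely between replicates of a group. Trib3 encodes a pseudokinase that inhibits AKT and feeds back on ATF4 and CHOP. In PBS replicates 1, 2 and 3 Trib3 was at 4.23, 0.928 and 0.038 CPM, in those of mtDNA at 8.11, 7.33 and 0.217 CPM and in those of Ox-mtDNA at 8.98, 47.2 and 0.258 CPM. Ox-mtDNA replicate 2 stood far above all others, and the 3 libraries of replicate 3 were the lowest. The fold change for Ox-mtDNA against PBS was 3.44 on the log2 scale (SE 1.98, edgeR adjusted p = 0.654). It was 1.401 without Ox-mtDNA replicate 2 and 5.28 without PBS replicate 1. Chac1 encodes an enzyme that degrades glutathione. Chac1 was measured at 3.35, 0.516 and 0.038 CPM in replicates 1, 2 and 3 of PBS, 6.73, 5.34 and 1.85 CPM in those of mtDNA and 14.99, 25.1 and 1.34 CPM in those of Ox-mtDNA. Replicate 3 was again lowest in each group, and PBS replicate 1 exceeded Ox-mtDNA replicate 3. Ox-mtDNA against PBS gave Chac1 a log2 fold change of 3.41 (SE 1.47, edgeR adjusted p = 0.506). Without PBS replicate 1 it was 5.64. Asns encodes asparagine synthetase. The 3 PBS libraries held 35.2, 8.404 and 14.3 CPM of Asns, the mtDNA libraries 54.5, 30.7 and 19.9 CPM and the Ox-mtDNA libraries 50.97, 108 and 24.4 CPM. PBS and Ox-mtDNA overlapped, with Ox-mtDNA replicate 2 highest and PBS replicate 2 lowest. Asns thus had a log2 fold change of 1.66 for Ox-mtDNA against PBS (SE 0.72, edgeR adjusted p = 0.506). This was 0.95 without Ox-mtDNA replicate 2, and the replicate differences of 0.53, 3.67 and 0.77 show the weight of replicate 2. Psat1, an enzyme of serine synthesis, was at 80.99, 55.9 and 119 CPM in PBS and 110.4, 44.9 and 135 CPM after Ox-mtDNA, and its log2 fold change was 0.18 (SE 0.50).

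Cebpb and Atf5 encode leucine zipper factors that pair with or act beside ATF4 and CHOP. Levels of Cebpb in replicates 1, 2 and 3 were 13.2, 11.4 and 1.48 CPM in PBS, 19.9, 20.1 and 1.25 CPM after mtDNA and 45.5, 63.9 and 0.722 CPM after Ox-mtDNA. In replicates 1 and 2 Ox-mtDNA was above PBS, by 1.78 and 2.47 on the log2 scale, and in replicate 3, where all levels were low, it was below PBS by 0.94. Its log2 fold change for Ox-mtDNA against PBS was 2.08 (SE 1.49, edgeR adjusted p = 0.774). With replicates 1 and 2 only the edgeR adjusted p was 0.0656, and without Ox-mtDNA replicate 2 the log2 fold change was 1.403. Atf5 was at 46.8, 31.2 and 7.02 CPM in PBS and 83.04, 86.9 and 9.91 CPM after Ox-mtDNA, with replicate 3 lowest in each group and a log2 fold change of 1.08 (SE 0.997). It shares 82 exonic bases with each of the antisense genes Nup62 and Il4i1, and reads there were counted for more than 1 gene. At 67.2% and 61.7% GC, Cebpb and Atf5 are the 2 members in the range above 60% that was low in replicate 3.

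**Figure D2:**
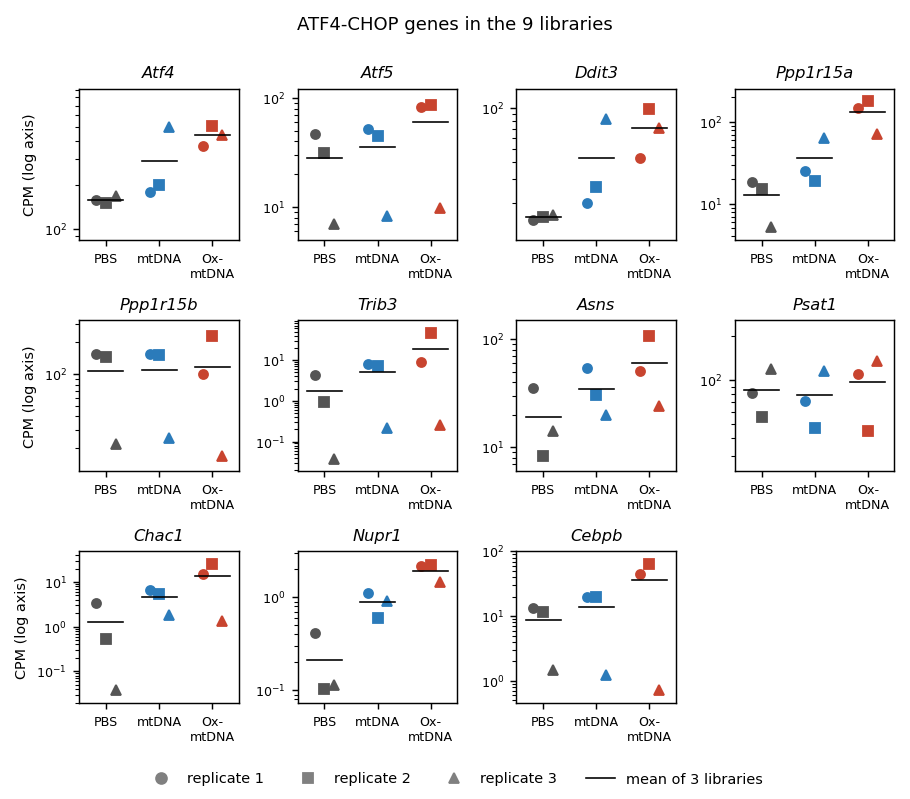
CPM (log axis, one scale per panel) of the 11 ATF4-CHOP genes in the 9 libraries, by group, with a marker shape per replicate and a line at the mean of 3 libraries. For Atf4, Ddit3, Ppp1r15a and Nupr1 all Ox-mtDNA points lie above all PBS points, and mtDNA replicate 3 lies far above mtDNA replicates 1 and 2 for Atf4, Ddit3 and Ppp1r15a.

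Seen by library, a few of the 9 held the extremes. The median deviation of the 11 ATF4-CHOP genes from their PBS means on the log2 scale was lowest in PBS replicate 3, at -1.12, and highest in Ox-mtDNA replicate 2, at 2.73. Of the 34 genes, 16 had their highest level in Ox-mtDNA replicate 2 and 9 their lowest in PBS replicate 3. Without Ox-mtDNA replicate 2 the ATF4-CHOP median for Ox-mtDNA against PBS was 1.401, without PBS replicate 3 it was 1.57, and with replicates 1 and 2 only it was 2.16. In 4 of the 11 genes every Ox-mtDNA library lay above every PBS library, against 7.39% of all tested genes. Without Ox-mtDNA replicate 3 this was so in 9 of 11, against 13.1%, and without PBS replicate 1 in 6 of 11, against 8.97%. Without PBS replicate 2, PBS replicate 3, Ox-mtDNA replicate 1 or Ox-mtDNA replicate 2 it stayed at 4 of 11. The shares of all tested genes were then 9.01%, 15.1%, 12.5% and 14%.

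The low levels of replicate 3 touched some of the 34 genes and left others. Against the mean of PBS replicates 1 and 2, PBS replicate 3 differed on the log2 scale by -5.42 for Syvn1, -3.91 for Trib3, -3.38 for Chac1, -2.97 for Cebpb, -2.43 for Atf5 and -1.68 for Ppp1r15a, all with more than 55% GC. A further 3 genes in that range did not share this, with 0.12 for Atf4, 0.61 for Sec61b and -0.09 for Sdf2l1. Low values were also seen at middling GC content, with -2.78 for Ppp1r15b (48.8% GC) and -2.38 for Eif2ak3 (51.2% GC). What GC content, sex of the cells or RNA quality contributed to replicate 3 was not tested. With a GC correction in each library and the replicate number as a block, the ATF4-CHOP median was 1.67.

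**Figure D3:**
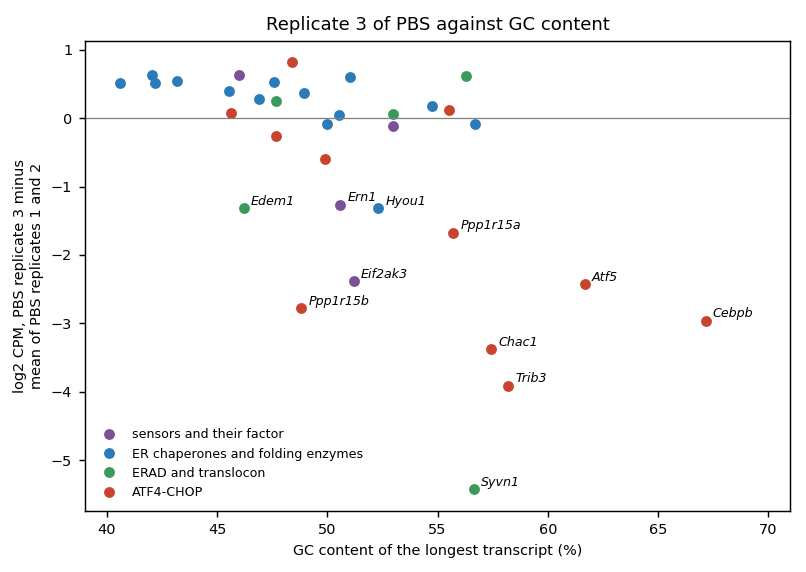
GC content of the longest transcript (x axis, %) of each of the 34 genes against the log2 CPM of PBS replicate 3 minus the mean of PBS replicates 1 and 2 (y axis), coloured by role group, with genes below -1 named. Syvn1 lies at -5.42 and Atf4, of similar GC content, at 0.12.

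Among the chaperones, Hspa5 encodes BiP, the main ER chaperone, which also holds the sensors inactive (chromosome 2, 34661982 to 34667559). In PBS replicates 1, 2 and 3 Hspa5 was at 701, 646 and 885 CPM, in those of mtDNA at 783, 780.1 and 871 CPM and in those of Ox-mtDNA at 919.6, 1099.9 and 858 CPM. PBS replicate 3 lay above Ox-mtDNA replicate 3, so the groups overlapped. The fold change for Ox-mtDNA against PBS was 0.37 on the log2 scale (SE 0.23, edgeR adjusted p = 0.703). The replicate differences were 0.39, 0.77 and -0.05. Hsp90b1 encodes GRP94, the HSP90 of the ER, which folds Toll-like receptors among other clients. Hsp90b1 was measured at 1057, 1014 and 1601 CPM in replicates 1, 2 and 3 of PBS, 939, 998 and 1184 CPM in those of mtDNA and 1101, 809 and 1181 CPM in those of Ox-mtDNA. PBS replicate 3 was the highest library and Ox-mtDNA replicate 2 the lowest. Ox-mtDNA against PBS gave Hsp90b1 a log2 fold change of -0.25 (SE 0.28, edgeR adjusted p = 0.923). Its exons share 415 bases with an unnamed antisense gene model, and reads there cannot be assigned to a strand.

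Dnajb9 was the chaperone gene with the largest positive fold change. It encodes ERdj4, a BiP co-chaperone that represses IRE1 and is a known target of spliced XBP1. The 3 PBS libraries held 34.98, 37.1 and 51.5 CPM of Dnajb9, the mtDNA libraries 40.5, 44.9 and 55.6 CPM and the Ox-mtDNA libraries 88.1, 147 and 53.96 CPM. In replicates 1 and 2 the Ox-mtDNA library was far above PBS, while in replicate 3 the values were nearly equal. Dnajb9 thus had a log2 fold change of 1.22 for Ox-mtDNA against PBS (SE 0.39, edgeR adjusted p = 0.472). Without Ox-mtDNA replicate 2 it was 0.77. Pdia4, a disulfide isomerase, had a negative fold change. Levels of Pdia4 in replicates 1, 2 and 3 were 174, 155 and 237 CPM in PBS, 132, 121 and 118 CPM after mtDNA and 163, 76.6 and 119.5 CPM after Ox-mtDNA. Each mtDNA library was below each PBS library, and Ox-mtDNA replicate 1 lay within the PBS range. Its log2 fold change for Ox-mtDNA against PBS was -0.65 (SE 0.32, edgeR adjusted p = 0.563). Without Ox-mtDNA replicate 2 it was -0.43. Calr, Dnajb11 and Dnajc3, a lectin chaperone and a pair of co-chaperones, had no overlap between PBS and Ox-mtDNA with Ox-mtDNA lower, at log2 fold changes of -0.24 (SE 0.21), -0.21 (SE 0.20) and -0.50 (SE 0.25). For the other 7 (Canx, Pdia3, Pdia6, Sdf2l1, Manf, Creld2 and Hyou1), log2 fold changes ran from -0.17 for Pdia6 to 0.35 for Hyou1. Sdf2l1, a partner of BiP, spanned the widest range within a group, at 80.8, 24.5 and 67.8 CPM after Ox-mtDNA against 59.2, 57.8 and 55.01 CPM in PBS.

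The 3 sensor genes and Xbp1 showed no common direction. Xbp1 encodes the factor that IRE1 activates, and Ern1 encodes IRE1 itself. In PBS replicates 1, 2 and 3 Xbp1 was at 757, 1018 and 807 CPM, in those of mtDNA at 601, 829 and 1286 CPM and in those of Ox-mtDNA at 1284, 643 and 829 CPM. The highest levels were in mtDNA replicate 3 and Ox-mtDNA replicate 1, and all groups overlapped. The fold change for Ox-mtDNA against PBS was 0.09 on the log2 scale (SE 0.37, edgeR adjusted p = 0.9996). Gene counts do not separate spliced from unspliced Xbp1 mRNA, so the activity of IRE1 was not measured. Ern1 was measured at 211, 239 and 93.6 CPM in replicates 1, 2 and 3 of PBS, 203, 213 and 175 CPM in those of mtDNA and 224, 138 and 148 CPM in those of Ox-mtDNA. PBS replicate 3 was the lowest library. Ox-mtDNA against PBS gave Ern1 a log2 fold change of -0.09 (SE 0.38, edgeR adjusted p = 0.9996). Eif2ak3 was at 80.2, 78.7 and 15.1 CPM in PBS and 59.4, 156 and 40.2 CPM after Ox-mtDNA, with a log2 fold change of 0.56 (SE 0.75) that became -0.23 without Ox-mtDNA replicate 2. It shares 485 exonic bases with an antisense gene model. Atf6 was at 251.5, 227 and 371 CPM in PBS and 229.7, 233 and 257 CPM after Ox-mtDNA, with a log2 fold change of -0.24 (SE 0.31).

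In the ERAD group, Herpud1 had its highest mean level after mtDNA and not after Ox-mtDNA. It encodes HERP, a membrane protein that helps to assemble the ubiquitin ligase complex of the ER (chromosome 8, 95113066 to 95122005). The 3 PBS libraries held 281, 312 and 310.0 CPM of Herpud1, the mtDNA libraries 355, 494 and 499 CPM and the Ox-mtDNA libraries 245, 400.0 and 288 CPM. Every mtDNA library was above every PBS library, and Ox-mtDNA overlapped with both other groups. The log2 fold change was 0.58 (SE 0.27) for mtDNA against PBS, 0.05 (SE 0.27) for Ox-mtDNA against PBS and -0.53 (SE 0.27) for Ox-mtDNA against mtDNA. All 3 edgeR adjusted p-values were above 0.999, and leaving out single libraries gave 0.44 to 0.71 for the first and -0.76 to -0.39 for the last.

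Edem1, Sel1l and Syvn1 act in one degradation pathway, EDEM1 as a factor that routes glycoproteins to degradation, and SEL1L and HRD1, encoded by Syvn1, as the core of the ligase. Levels of Edem1 in replicates 1, 2 and 3 were 289, 269.7 and 112 CPM in PBS, 339.8, 345 and 268 CPM after mtDNA and 333, 1031 and 272 CPM after Ox-mtDNA. Ox-mtDNA replicate 2 stood far above every other library, and PBS replicate 3 was the lowest. Edem1 thus had a log2 fold change of 1.29 for Ox-mtDNA against PBS (SE 0.57, edgeR adjusted p = 0.512). Leaving out Ox-mtDNA replicate 2 gave 0.42. In PBS replicates 1, 2 and 3 Sel1l was at 146, 136 and 167 CPM, in those of mtDNA at 139.9, 138 and 49.7 CPM and in those of Ox-mtDNA at 46.4, 141 and 40.03 CPM. In 3 libraries, mtDNA replicate 3 and Ox-mtDNA replicates 1 and 3, it was at 49.7 CPM or less, and in the other 6 at 136 CPM or more. Its log2 fold change for Ox-mtDNA against PBS was -0.98 (SE 0.56, edgeR adjusted p = 0.649). Leaving out Ox-mtDNA replicate 2 gave -1.81. Syvn1 was measured at 84.3, 94.1 and 1.97 CPM in replicates 1, 2 and 3 of PBS, 81.3, 86.7 and 2.12 CPM in those of mtDNA and 62.9, 111 and 3.199 CPM in those of Ox-mtDNA. Replicate 3 was far below the rest in every group, and its 3 libraries set the error. The fold change for Ox-mtDNA against PBS was -0.03 on the log2 scale (SE 1.60, edgeR adjusted p = 0.9996). It shares 447 exonic bases with an antisense gene model and 91 with Mrpl49. Sec61b, a subunit of the channel through which proteins enter the ER, had a log2 fold change of 0.21 (SE 0.33).

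**Figure D4:**
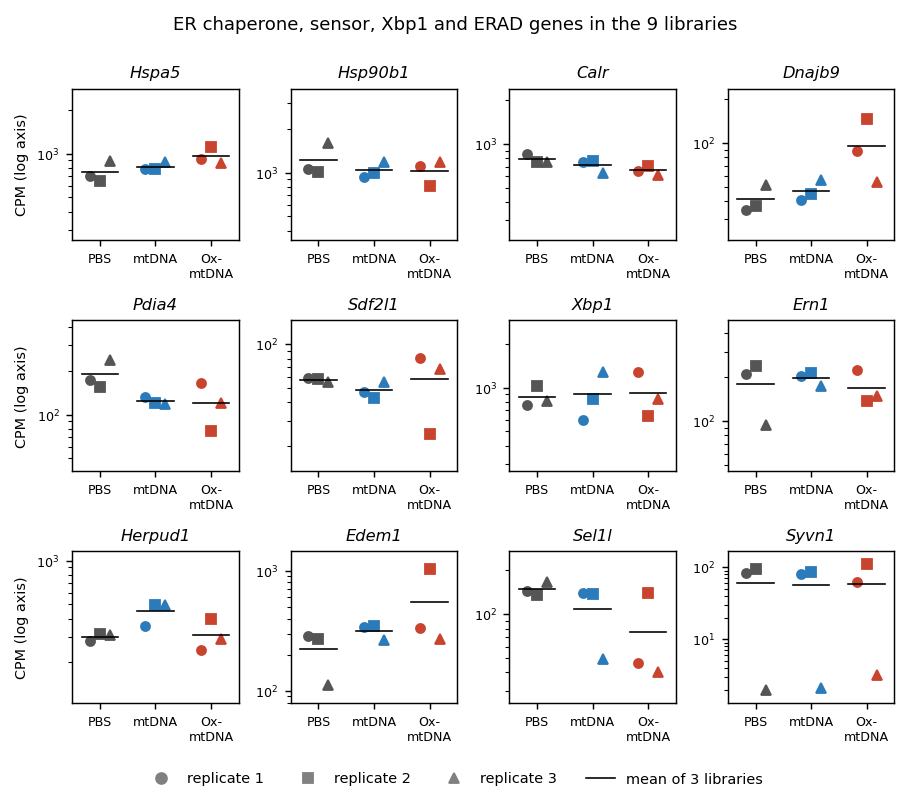
CPM (log axis, one scale per panel) of 12 chaperone, sensor, Xbp1 and ERAD genes in the 9 libraries, with a marker shape per replicate and a line at the mean of 3 libraries. Dnajb9 is higher after Ox-mtDNA in replicates 1 and 2 (88.1 and 147 CPM) than in any PBS library, and Herpud1 is higher in the 3 mtDNA libraries than in the 3 PBS libraries.

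Levels between genes were compared per kilobase of exon. In PBS the most abundant of the 34 genes were Hsp90b1 at 433 CPM per kilobase, Xbp1 at 360 and Calr at 359, followed by Hspa5 at 198 and Pdia3 at 196. At the other end were Nupr1 at 0.256, Chac1 at 0.795 and Trib3 at 0.855 CPM per kilobase. Atf4, at 92.0 CPM per kilobase, was below Pdia3 in PBS, and at 255 after Ox-mtDNA it was close to Hspa5, then at 256. Ddit3 was at 17.6 CPM per kilobase in PBS and 79.1 after Ox-mtDNA, and Ppp1r15a at 4.404 and 45.2. The libraries spread around these means as given above.

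Promoter sequences are shown because chaperone and ATF4-CHOP genes are known to be reached by different factors. Windows from 250 bases before to 50 bases after the start were taken from RefSeq (GRCm38.p6) for 30 of the 34 genes, 32 windows in all, Atf5 and Psat1 having a pair each. Atf6, Hyou1, Manf and Ppp1r15b had none. Both strands were searched, and only exact matches to the fixed letters of an element were counted. The ER stress response element (ERSE), bound by ATF6 together with NF-Y, reads CCAAT, 9 further bases and CCACG. It was found in 7 of 12 chaperone genes and in Syvn1, in 0 of 10 ATF4-CHOP genes and in 0.119% of all 32851 windows of the table. The matches are given 5′ to 3′ in the direction of the element, with its fixed parts in capitals.
Hspa5: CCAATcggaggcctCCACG
Calr: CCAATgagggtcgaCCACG
Hsp90b1: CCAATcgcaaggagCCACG
Hsp90b1: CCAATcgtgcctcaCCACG
Canx: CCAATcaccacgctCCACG
Pdia6: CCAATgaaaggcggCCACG
Dnajc3: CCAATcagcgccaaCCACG
Creld2: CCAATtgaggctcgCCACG
Syvn1: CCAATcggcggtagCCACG

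Hsp90b1 had a pair of matches. Of these genes, Hspa5 and Canx had positive fold changes for Ox-mtDNA against PBS, and Calr, Hsp90b1, Pdia6, Dnajc3, Creld2 and Syvn1 negative ones, from -0.50 to 0.37 on the log2 scale. Dnajb9 had none. The shorter ERSE-II (ATTGG, 1 base, CCACG) was found in Herpud1 and Dnajb11 and in 0.0365% of all windows. The shared core CCACG, which both forms contain, was in 78.1% of the 32 windows and in 32.8% of all. The element of XBP1 called UPRE (TGACGTGG), whose reverse strand also contains CCACG, was in none of the 32 and in 0.676% of all. The composite element of ATF4 and C/EBP factors called CARE was searched as TGATGNAAT, with its last base fixed as T. In this form it was in Nupr1 alone, as TGATGCAAT, and in 0.965% of all windows. Forms with another last base were not searched.

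The 250 bases before the start are printed for 4 genes, Hspa5 and Herpud1 for their ER stress elements and Ddit3 and Ppp1r15a as ATF4-CHOP genes in which PBS and Ox-mtDNA did not overlap. Capitals mark ERSE in Hspa5 (chr2:34771840-34772089, plus strand), ERSE-II in Herpud1 (chr8:94386179-94386428, plus strand) and the cyclic AMP response element TGACGTCA in Ppp1r15a (chr7:45526269-45526518, minus strand). That element was added to the search after the sequence had been seen, and is in 1.79% of all windows. Ddit3 (chr10:127290543-127290792, plus strand) has no exact match to the searched elements in this window. On its opposite strand it holds CCAAT, 9 further bases and GCACG, where ERSE reads CCACG. Herpud1, also on its opposite strand, holds a run that differs from the searched form of CARE in the last base only. Such near matches were not counted in any gene.
Hspa5: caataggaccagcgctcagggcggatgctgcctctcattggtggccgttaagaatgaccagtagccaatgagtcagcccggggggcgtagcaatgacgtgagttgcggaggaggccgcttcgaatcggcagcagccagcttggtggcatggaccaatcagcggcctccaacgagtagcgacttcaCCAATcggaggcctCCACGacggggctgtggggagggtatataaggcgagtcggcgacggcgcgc
Herpud1: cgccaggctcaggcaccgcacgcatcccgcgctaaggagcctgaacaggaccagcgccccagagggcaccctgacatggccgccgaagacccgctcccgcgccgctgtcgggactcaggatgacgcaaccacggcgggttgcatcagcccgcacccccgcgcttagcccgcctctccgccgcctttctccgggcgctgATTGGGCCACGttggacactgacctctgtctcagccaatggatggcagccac
Ddit3: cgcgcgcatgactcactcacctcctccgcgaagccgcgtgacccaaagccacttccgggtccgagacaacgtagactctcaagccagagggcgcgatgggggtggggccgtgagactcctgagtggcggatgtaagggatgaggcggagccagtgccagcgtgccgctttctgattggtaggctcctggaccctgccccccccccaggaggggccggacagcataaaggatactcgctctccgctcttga
Ppp1r15a: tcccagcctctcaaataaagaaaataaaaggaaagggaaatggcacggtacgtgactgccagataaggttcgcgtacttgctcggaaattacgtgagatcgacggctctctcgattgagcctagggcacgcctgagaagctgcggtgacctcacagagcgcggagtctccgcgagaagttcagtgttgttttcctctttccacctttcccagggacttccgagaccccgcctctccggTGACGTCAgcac

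ERSE in Hspa5 ends 47 bases before the start, and ERSE-II in Herpud1 ends 42 bases before it. A match of letters is not evidence of binding, and elements outside these windows were not searched.

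**Figure D5:**
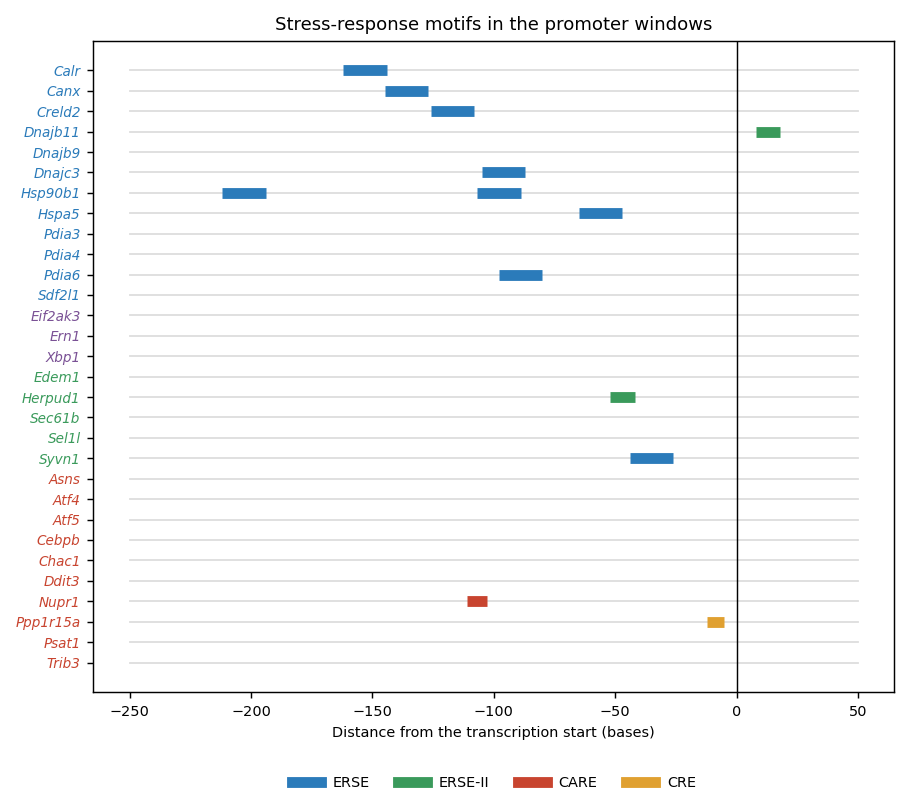
Positions of the exact matches along the promoter windows of 30 genes, as distance from the transcription start in bases (x axis). Genes are coloured by role group and elements by bar colour. ERSE bars lie in 7 chaperone genes and Syvn1, and none lies in the ATF4-CHOP genes.

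mtDNA without oxidation gave positive but smaller fold changes in the same branch. Both treated groups were set against the same 3 PBS libraries, so the values are given side by side and not correlated. For mtDNA against PBS, 10 of 11 ATF4-CHOP genes were positive with a median of 0.88, against a median of 0.02 over all tested genes. Medians within replicates 1, 2 and 3 were 0.46, 0.72 and 1.19. The chaperone median was -0.08, with 5 of 14 positive. At an unadjusted p under 0.05, 3 of the 34 genes (Ddit3, Ppp1r15a and Nupr1) were higher and 0 lower, against 2.02% and 0.598% of all tested genes. With the replicate block these were 6 (also Atf4, Chac1 and Herpud1) and 0, against 4.02% and 1.67%. Groups did not overlap in 5 genes that were higher (Atf4, Ddit3, Ppp1r15a, Nupr1 and Herpud1) and in 1 that was lower (Pdia4), against 5.58% and 4.96%. Without mtDNA replicate 3 these were 10 and 5 genes, against 15.7% and 13.4%.

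The log2 fold change of Ddit3 for mtDNA against PBS was 1.45 (SE 0.56), and 0.49 without mtDNA replicate 3. Its replicate differences were 0.40, 0.72 and 2.34. Those of Atf4 were 0.18, 0.41 and 1.57, at a fold change of 0.88 (SE 0.40). For Ppp1r15a they were 0.46, 0.34 and 3.61, at 1.49 (SE 0.64). Replicate 3 thus gave most of the size, and mtDNA replicate 3 also held the highest summed levels of immediate-early and heat shock genes of its group, given below. For Nupr1 they were 1.23, 1.79 and 2.25, at 2.03 (SE 0.65).

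Ox-mtDNA against mtDNA asks about oxidation itself. Here too the fold changes of all 11 ATF4-CHOP genes were positive (median 0.80), with medians of 0.89, 1.71 and 0.15 within replicates 1, 2 and 3. Only 4 of the 11 were higher in all 3 replicates, as were 2653 of the 17555 tested genes. With the replicate block Ppp1r15b was at -0.16. Over all 34 genes the median was 0.14, with 23 positive, and over all tested genes 0.04. Without mtDNA replicate 3 the median of the 34 was 0.30. At an unadjusted p under 0.05, 2 of the 34 (Ppp1r15a and Dnajb9) were higher and 0 lower, against 0.923% and 1.48% of all tested genes. With the replicate block these were 3 (also Atf5) and 1 (Herpud1), against 3.43% and 3.37%. Groups did not overlap in 3 genes that were higher (Pdia3, Ppp1r15a and Nupr1) and in 0 that were lower, against 2.04% and 2.79%. Without mtDNA replicate 3 these counts were 8 and 4, against 2457 and 2802 of the 17555 tested genes.

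Ppp1r15a had a log2 fold change of 1.87 (SE 0.64) for Ox-mtDNA against mtDNA, and 2.59 without mtDNA replicate 3. Its replicate differences were 2.54, 3.21 and 0.15. Dnajb9 was at 1.03 (SE 0.38), with 1.12, 1.70 and -0.04. Atf4 was at 0.59 (SE 0.40), with 1.05, 1.35 and -0.19, and Ddit3 at 0.72 (SE 0.55), with 1.10, 1.91 and -0.23. For these 4 genes, replicates 1 and 2 separated Ox-mtDNA from mtDNA and replicate 3 did not. With replicates 1 and 2 only, the smallest edgeR adjusted p among them was 0.0611, for Ppp1r15a.

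Genes that respond to handling and heat differed between the same libraries. The sum of 12 heat shock genes was 4607 to 5369 CPM in PBS, 4391 to 9803 CPM after mtDNA and 9422 to 50058.5 CPM after Ox-mtDNA. That of 24 immediate-early genes was 527 to 1142 CPM, 1273 to 2483 CPM and 2229 to 14147 CPM. The immediate-early list includes Atf3, which is also among the pathway regulators, and its levels are given there. Replicate 3 was the highest of the mtDNA libraries and the lowest of the Ox-mtDNA libraries in both sums, as it was for Ppp1r15a. Their part in the levels of the ATF4-CHOP genes was not tested. Plasma cells, which also carry high levels of ER chaperones, were followed by 9 markers. These summed to 1878 to 2852 CPM in PBS, 1726 to 2757 CPM after mtDNA and 1983 to 3403 CPM after Ox-mtDNA, and none was at 0 throughout. The markers include Xbp1, itself among the genes of the sensors and their factor, and Derl3, of the further ERAD list. Xbp1 alone gave 601 to 1286 CPM of a library's sum, so the sums are not independent of the pathway genes.

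Other genes of the pathway that are not among the 34 were taken from 5 lists. Of 115 tested, 76 had positive and 39 negative fold changes for Ox-mtDNA against PBS, with a median of 0.16, and 10 were higher and 6 lower at an unadjusted p under 0.05, against 5.88% and 3.93% of all tested genes. With the replicate block these were 18 and 12, against 11% and 8.01%. In the list of further ATF4 targets, which encode amino acid carriers, tRNA synthetases and enzymes of serine and one-carbon metabolism, 30 of 32 could be tested (Gdf15 and Stc2 had too few counts). Positive fold changes were found in 29 of the 30 (median 0.73), and 8 were higher and 0 lower at an unadjusted p under 0.05, against the same 5.88% and 3.93%, and with the replicate block 13 and 1. Replicate medians were -0.06, 1.57 and 0.37, so replicate 2 held most of the size. The negative one, named after its value was seen, was Wars1, the tryptophan tRNA synthetase, at -0.58 (SE 0.26), with each Ox-mtDNA library below each PBS library.

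Slc3a2 encodes the heavy chain shared by several amino acid carriers. The 3 PBS libraries held 192, 127 and 107 CPM of Slc3a2, the mtDNA libraries 266, 221 and 753 CPM and the Ox-mtDNA libraries 486, 1056 and 647 CPM. All Ox-mtDNA libraries and mtDNA replicate 3 were above the rest, and the log2 fold change for Ox-mtDNA against PBS was 2.36 (SE 0.55). Mthfd2, a mitochondrial enzyme of one-carbon metabolism, was at 80.4, 36.97 and 58.5 CPM in PBS and 115, 194 and 118 CPM after Ox-mtDNA, which gave a log2 difference of 1.28 (SE 0.35). Vldlr, a lipoprotein receptor, was at 0.605, 0.309 and 0.266 CPM and 1.28, 1.32 and 1.39 CPM, which gave 1.748 (SE 0.53). For mtDNA against PBS, 26 of the 30 were positive with a median of 0.24, and for Ox-mtDNA against mtDNA 29 of the 30 with a median of 0.37.

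The lists of ER genes had no common direction. Among 20 further folding genes, 10 were positive, with a median of -0.03, among 22 genes of ER entry 13 were positive, with a median of 0.08, and among 23 further ERAD genes 15 were positive, with a median of 0.12. The 3 folding genes with the smallest p-values had negative log2 fold changes, of -0.57 (SE 0.25) for Pdia5, -0.76 (SE 0.37) for Txndc5 and -0.61 (SE 0.30) for Dnajc10, all enzymes of disulfide chemistry. In the entry list they were Spcs3, of the signal peptidase, at -0.92 (SE 0.33), Rpn1, of the glycosylation complex, at -0.79 (SE 0.29), and Srprb, of the signal recognition particle receptor, at 0.32 (SE 0.28). In the ERAD list they were Edem3, a mannosidase, at -0.92 (SE 0.26), Ube2g2, a ubiquitin-conjugating enzyme, at 0.91 (SE 0.35), and Rnf5, a ubiquitin ligase, at -0.80 (SE 0.38). Of these genes, picked by their p-values, Edem3, Spcs3, Rpn1, Pdia5, Txndc5 and Rnf5 had every Ox-mtDNA library below every PBS library. Over the full lists this held for 2 of 20 folding, 2 of 22 entry and 3 of 23 ERAD genes, against 8.08% of all tested genes. Every Ox-mtDNA library lay above in 0, 1 and 1, against 7.39%.

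Among 21 regulators, 10 were positive, with a median of -0.05. At an unadjusted p under 0.05, 1 was higher and 3 lower, against 5.88% and 3.93% of all tested genes. With the replicate block these were 1 (Atf3) and 3 (Eif2ak2, Mbtps1 and Mbtps2), against 11% and 8.01%. Groups did not overlap in 1 that was higher and 5 that were lower, against 7.39% and 8.08%. Mbtps1 and Mbtps2, the Golgi proteases that cut ATF6, had log2 fold changes of -0.70 (SE 0.28) and -0.70 (SE 0.25), each without overlap. Atf3, a stress-induced factor that both ATF4 and immediate-early signalling can induce, was the other regulator named by its p-value. Levels of Atf3 in replicates 1, 2 and 3 were 9.68, 7.01 and 2.999 CPM in PBS, 20.5, 17.5 and 694 CPM after mtDNA and 767, 251.2 and 710.3 CPM after Ox-mtDNA. The 3 Ox-mtDNA libraries and mtDNA replicate 3 were at 251.2 CPM or more, and the other 5 libraries were at or under 20.5 CPM. Its log2 fold change for Ox-mtDNA against PBS was 6.46 (SE 1.64).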

How the data were processed

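Polyadenylated RNA of sorted mouse pDCs was sequenced in 9 libraries, 3 per group, and groups and replicate numbers were taken from the sample titles. The table the authors deposited holds raw counts of fragments per gene. The submitters' processing notes name fastp 0.23.4, STAR 2.7.11b, featureCounts 2.0.1 and the build GRCm39. Exons were counted without strand, per the file headers, and fragments over several genes were counted for each. Fragments with several alignments were left out. Counts of overlapping genes are therefore uncertain. Symbols came from GENCODE M21, with older symbols for 14 listed genes.

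The 34 genes, their role groups, the further lists and the tests were chosen with earlier results of these data known. Genes were kept with filterByExpr (minimum count 10, 17555 genes), scaled with TMM factors and tested in 1 model of all 9 libraries with the robust quasi-likelihood F-test of edgeR 4.0.16 in R 4.3.3 (6 residual degrees of freedom), two-sided, with Benjamini-Hochberg adjustment over all tested genes at 0.05. CPM are counts of a gene scaled to a common library size over the kept genes, with TMM factors. Named genes were fixed by name, plus the 2 of each role group and comparison with the smallest p, and the 3 of each further list with the smallest p for Ox-mtDNA against PBS. The fit was tested on simulated data. Alternatives were DESeq2 1.42.0 (its test, or its size factors in edgeR), upper quartile scaling, limma-voom (limma 3.58.1), other filters, only 6 libraries, replicates 1 and 2 only, leaving out each library, a loess correction for the GC content of the longest transcript (span 0.3) and the replicate number as a block.

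The main model held no pairing, and the replicate number entered only as a block in alternatives. Deviations from the group means correlated at 0.487 to 0.897 across genes between libraries of the same number. Libraries of replicates 1 and 2 correlated with each other about as well, so the correlation does not show pairs. The labels do not say what a replicate number shares. Between libraries of a group, chi-square per degree of freedom was 16.5 to 395, where counting error alone gives about 1, so libraries of a group differed by more than counting error. Intervals of counting error were not used.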

Additional observations from a re-analysis of the deposited data

How the results depend on the processing

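Under DESeq2 370 genes passed for Ox-mtDNA against PBS (260 higher, 110 lower), 14 for mtDNA against PBS and 1 for Ox-mtDNA against mtDNA, against 0 each with edgeR. For Ox-mtDNA against PBS, 1 passed with the replicate block, 1 with the block and GC correction together and 25, all higher, with replicates 1 and 2 only; leaving out single libraries gave 0 in each comparison. The median of the 34 genes for Ox-mtDNA against PBS, 0.20, was 0.11 with no filter, 0.073 with block and GC correction and 0.11 with replicates 1 and 2 and the block, and 0.074 to 0.26 without single libraries. For mtDNA against PBS, 0.11, it was 0.051 with no filter, 0.16 with only 6 libraries, 0.041 with block and GC correction and 0.0066 with GC correction alone, and 0.062 to 0.15 without single libraries. For Ox-mtDNA against mtDNA, 0.14, it was 0.10 to 0.30 without single libraries. Of 756 recalculated fold changes of the 36 named results of single genes, 727 kept direction and side of the threshold, 4 came to pass it (Ddit3, Ppp1r15a and Nupr1 by DESeq2, Ppp1r15a with replicates 1 and 2 only) and 25 changed sign, all of genes whose fold changes were within 1 SE of 0 or that rested on Ox-mtDNA replicate 2. For Ox-mtDNA against PBS, Syvn1 was at 0.016 with upper quartile scaling, 0.23 with limma-voom and 0.15 with the replicate block, and at -0.87 to 0.52 without single libraries. Herpud1 was at -0.044 with no filter, -0.062 with GC correction and -0.063 with block and GC correction, and at -0.19 to 0.17 without single libraries. Xbp1 was at -0.0086 with GC correction and at -0.24 to 0.28 without single libraries, Ern1 at -0.42 to 0.14 and Eif2ak3 at -0.23 to 0.87. For mtDNA against PBS, Ern1 was at -0.12 with replicates 1 and 2 only, -0.12 with the block added and -0.20 to 0.36 without single libraries, and Atf6 at -0.57 to 0.023. For Ox-mtDNA against mtDNA, Eif2ak3 was at -0.46 to 0.64 and Edem1 at -0.077 to 1.07. The cause of these shifts was not tested. The GC correction alone, and replicates 1 and 2 with the block, were added after seeing the data. Among the 36 named results the block took none past an adjusted p of 0.05, while the counts at an unadjusted p under 0.05 grew as given beside them.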

Other observations

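Among the 9 plasma cell markers, 7 had positive fold changes for Ox-mtDNA against PBS, and the log2 median was 0.09. This median is the value of Xbp1, which is also among the genes of the sensors and their factor. Of the 9 markers, Prdm1 and Irf4 were chosen after their values were seen. They encode transcription factors of plasma cell differentiation that other immune cells also express, and in plasma cells Prdm1 acts upstream of Xbp1. Prdm1 was at 10.6, 5.57 and 6.38 CPM in PBS replicates 1, 2 and 3, at 13.1, 11.7 and 44.6 CPM after mtDNA and at 18.2, 48.6 and 44.0 CPM after Ox-mtDNA. Irf4 was at 74.9, 74.8 and 97.3 CPM in PBS, at 91.4, 77.1 and 405 CPM after mtDNA and at 102, 248 and 243 CPM after Ox-mtDNA. They are the 2 of the 9 markers in which every Ox-mtDNA library lay above every PBS library, against 7.39% of all tested genes. In both genes mtDNA replicate 3 was far above the other mtDNA libraries, as it was for Atf4 and Ddit3. Jchain, the joining chain of secreted antibodies, had a log2 fold change of 0.03.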
